A study of Mus musculus with 2 samples.

Results

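The TIM and TOM genes of mouse encode the translocases that carry proteins into mitochondria. They were taken as all genes whose symbol begins with Timm or Tomm followed by a digit and that have at least 1 protein-coding transcript in the annotation. The rule uses names and annotation only and no measured value. It found 25 genes, 10 named Tomm and 15 named Timm, of 55536 annotated gene entries. They lie on 16 chromosomes of the mm10 assembly, with at most 3 on any of them.

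Their RNA was measured in the heart of 2 female mice of strain B6CASTF1/J at an age of 10 days, with 1 total RNA library per animal made from 300 ng of RNA and ERCC spike-ins. By its name the strain is a hybrid, F1, of C57BL/6J and CAST/EiJ parents. The labels name no treatment, no genotype contrast and no second tissue, so there is a single group, and the animals are called replicates 1 and 2 as in the labels. They share a single donor record there, and the labels say nothing of litters. The libraries held 40184480 and 39620519 expected counts on annotated genes. All 6 heart muscle markers, among them Myh6 and Actc1, stood at 311.82 TPM or above in both libraries. Markers of other tissues differed between them: in replicates 1 and 2 the summed level of 6 fat markers was 103.3 and 36.17 TPM, that of 5 red cell markers 5269 and 12984 TPM and that of 5 atrial markers 515.74 and 952.73 TPM. Of 15 markers of fibroblasts, endothelium and mural cells, 0 differed by 25% or more. This share was 19.4% of all genes tested and 4.58% of 7548 genes with 717 to 8357 counts in sum, the range of the detected members. Most of these 15 markers had more counts than that, so 4.58% is not a share at their depth. Of 5 macrophage markers 1 differed by 25% or more, Adgre1, at 2.09 and 2.66 TPM. Of 5 skeletal muscle markers only Acta1 was detected, at 91.29 and 146.36 TPM, with Myh4 at 0 and 0.01 TPM. All 3 skeletal muscle markers with enough counts to be tested differed by 25% or more, Acta1 by 1.62-fold. The part of these differences in the results below was not tested. In whole tissue, fewer cells of a type and less RNA per cell cannot be told apart.

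Nearly all mitochondrial proteins are made in the cytosol and enter through the TOM complex of the outer membrane, in which receptors bind the precursor and a beta-barrel channel passes it. Behind it, the TIM23 complex takes proteins with a cleavable presequence into the matrix or the inner membrane, the TIM22 complex inserts multispanning carriers into the inner membrane, and small TIM chaperones guide hydrophobic precursors through the space between. Heart muscle is packed with mitochondria and builds many of them after birth.

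Sequence groups some members independently of their names. Among the coding sequences of the 25 members, 7 held 2 pairs of cysteine codons in which 3 codons part the cysteines of a pair, the hallmark of the small TIM chaperones, whose cysteines form disulfide bonds in the intermembrane space. The stretch from the first to the last of these codons is shown for each, 5′ to 3′, with the cysteine codons in capitals, because it shows that Timm10b carries the motif although its protein works in the TIM22 complex.
Timm8a1: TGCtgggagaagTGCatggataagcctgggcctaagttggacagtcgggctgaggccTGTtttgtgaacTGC
Timm8a2: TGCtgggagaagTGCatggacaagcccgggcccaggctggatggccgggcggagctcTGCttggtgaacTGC
Timm8b: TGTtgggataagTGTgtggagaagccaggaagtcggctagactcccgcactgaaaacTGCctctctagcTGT
Timm13: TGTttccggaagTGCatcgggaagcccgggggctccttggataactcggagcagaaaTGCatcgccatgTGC
Timm9: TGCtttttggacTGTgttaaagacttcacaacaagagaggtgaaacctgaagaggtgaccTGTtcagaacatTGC
Timm10: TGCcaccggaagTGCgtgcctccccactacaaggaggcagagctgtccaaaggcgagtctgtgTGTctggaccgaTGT
Timm10b: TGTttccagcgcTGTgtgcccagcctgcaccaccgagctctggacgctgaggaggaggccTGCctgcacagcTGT

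The distance between the pairs was 14 codons in Timm8a1, Timm8a2, Timm8b and Timm13. It was 15 codons in Timm9 and Timm10b and 16 in Timm10. Over whole coding sequences, Timm8a1 and Timm8a2 shared 77.3% of aligned bases, more than Timm17a and Timm17b at 68.0%, Tomm40 and Tomm40l at 58.9% or Tomm20 and Tomm20l at 52.8%. The longest run without a difference between any of these paralogues was 20 bases, below the 31-base words that were compared between transcripts.

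Of the 25 members, 23 were detected, which means a level of at least 1 TPM in both libraries, where TPM is a count per length, scaled to the same total in each library. The exceptions were Tomm20l and Timm8a2. The median level of the members was 38.8 ± 0.177 TPM (SD of the 2 libraries, n = 2), against 1.87 ± 0.0212 TPM over 21901 protein-coding genes, of which 53.5% were detected. Each library is given below by its deposited gene TPM, computed from alignments and called RSEM after its column headers, unless the second deposited quantification, called kallisto for the same reason, is named. From high to low the members made 24 steps, and at 16 of them the quantifier's own intervals overlapped in at least 1 library. At 5 of these the ranges of the 2 libraries overlapped as well: Tomm5 and Timm23, Tomm7 and Timm44, Tomm40l and Tomm20, Tomm70a and Timm50, and Timm17b and Timm29 could not be put in order.

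**Figure D1:**
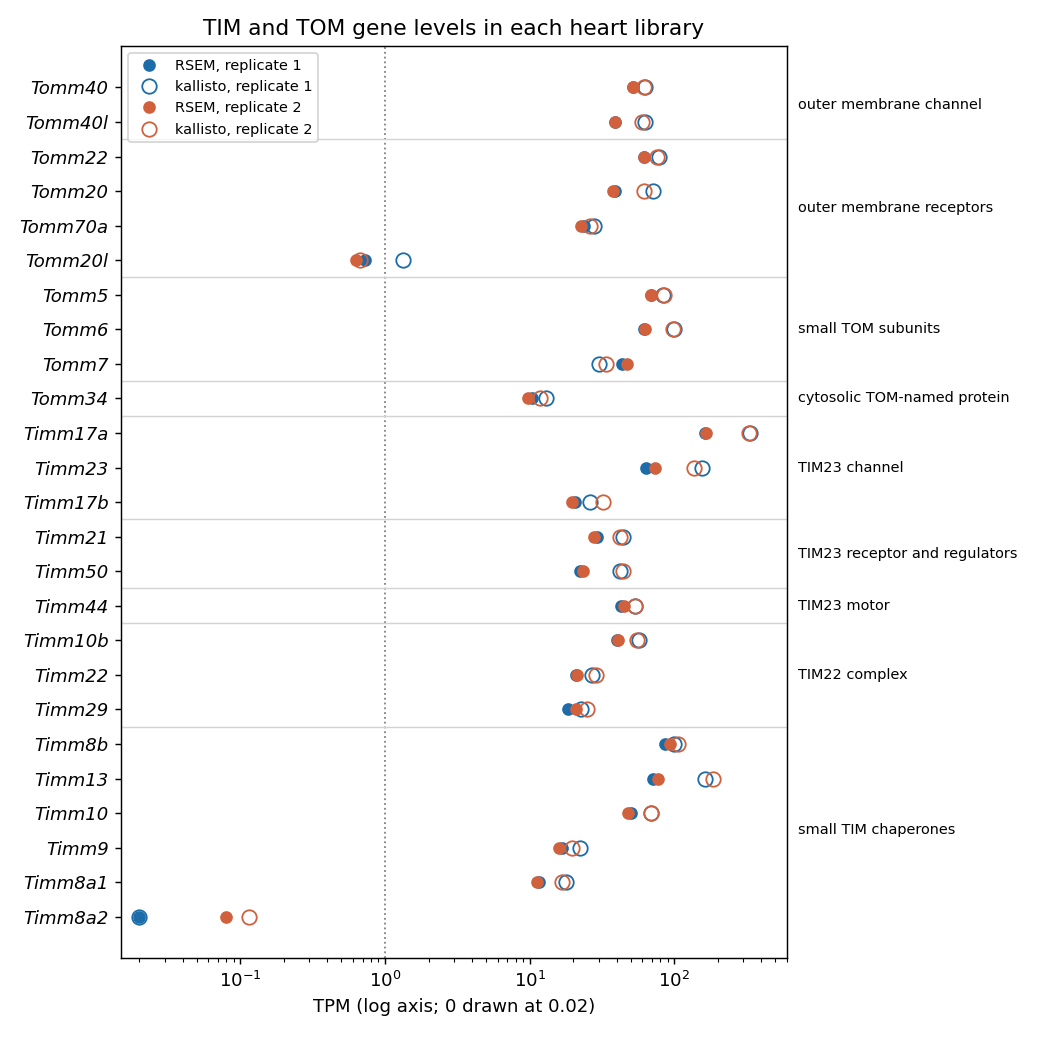
TPM of the 25 TIM and TOM genes on a log axis, grouped by role, with filled points for RSEM, open points for kallisto and a colour for each replicate. The 2 libraries lie close together for detected members, Tomm20l lies near the dotted line at 1 TPM and Timm8a2 lies far below it.

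The channel of the outer membrane was represented by Tomm40 and by its paralogue Tomm40l. Tomm40 (chr7:19701313-19715438, minus strand) encodes the beta-barrel through which precursors cross. It stood at 52.01 and 51.89 TPM in replicates 1 and 2. Tomm40l (chr1:171216011-171222514, minus strand) stood at 38.69 and 38.70 TPM. Tomm40 was thus 1.34-fold above Tomm40l in these tables, and the libraries did not overlap. The size of this gap depended on how reads were assigned. It was 1.02-fold by kallisto and 2.18-fold when RSEM levels of protein-coding transcripts only were compared. With all reads of each gene placed at the length of its longest coding transcript it was 3.65-fold. In protein-coding transcripts only, kallisto gave Tomm40 61.6 and 60.7 TPM and Tomm40l 36.0 and 36.9 TPM. The gene of the nuclear receptor Nr1i3 overlaps Tomm40l on the opposite strand over 59.6% of its 31-base words, and it held 1 and 2 counts against 1940 and 1938 for Tomm40l.

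Among the receptors, Tomm22 had the highest deposited level, Tomm20 followed, and Tomm70a was below both. Tomm20 summed with its near copies was at 68.7 TPM and Tomm22 at 61.8 TPM. That sum adds TPM of entries of unequal length, so it does not settle the order of the 2 genes. Tomm22 (chr15:79670861-79673400, plus strand) encodes the central receptor that also holds the complex together. Its level was 61.92 and 61.45 TPM. Tomm20 (chr8:126930667-126945844, minus strand), the receptor for presequences, stood at 38.95 and 37.81 TPM. Tomm70a (chr16:57121703-57156705, plus strand), which takes over carrier precursors from cytosolic chaperones, stood at 23.57 and 22.59 TPM. It had the most reads of any member, 4308 and 4049 expected counts, on a leading transcript of 5964 nt. Length mattered for the order of the receptors: with all reads at the longest coding transcript, Tomm22 was 1.26-fold below Tomm40 in place of 1.19-fold above it, and Tomm70a was 1.92-fold above Tomm20 in place of 1.66-fold below it. Tomm20l, a paralogue of Tomm20, had 11 and 9 expected counts and 0.73 and 0.63 TPM, which put Tomm20 49.4-fold above it, or 15.6-fold at the longest coding transcripts.

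Of the 3 small subunits that stabilise the channel, Tomm5 and Tomm6 were above the channel gene itself, and Tomm7 was not. Tomm5 (chr4:45105208-45108114, minus strand) stood at 69.18 and 69.09 TPM and Tomm6 (chr17:47686646-47688386, minus strand) at 62.07 and 62.28 TPM, 1.33-fold and 1.20-fold above Tomm40. Tomm7 (chr5:23838944-23844161, minus strand) stood at 43.64 and 47.15 TPM. Its ratio to Tomm40, 1.14-fold lower, was within 3 SD of the libraries and did not part the genes, but by kallisto Tomm7 was 1.96-fold lower, at 29.9 and 33.8 TPM against 62.8 and 61.7 TPM for Tomm40. Tomm34, a cytosolic protein with a TOM name that works with chaperones, was the lowest detected member at 10.43 and 9.80 TPM.

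The TIM23 channel is built from Timm23 and Timm17, and Timm17 has an X-linked and an autosomal gene. Timm17a (chr1:135295213-135313778, minus strand) had the highest deposited level of all members, 163.93 and 166.41 TPM, rank 392 of the protein-coding genes. Its paralogue Timm17b (chrX:7899357-7908351, plus strand) stood at 20.63 and 19.67 TPM, so that Timm17a was 8.16-fold higher, or 11.4-fold by kallisto. Timm23 (chr14:32180162-32201898, minus strand) stood at 64.16 and 73.73 TPM, the widest gap between the libraries among members above 20 TPM.

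The place of Timm17a rested on the lengths of the transcripts to which its reads were given. Its longest coding transcript, Timm17a-201, has 7280 nt, but it took 1273 of 3380 expected counts in replicate 1 and 1256 of 3343 in replicate 2. The others went mostly to Timm17a-204, of 565 nt, and to Timm17a-203, of 468 nt. With all reads of each gene placed at its longest coding transcript, Timm17a stood at 15.1 ± 0.0919 TPM and in the 14th place among members, and it was then below Timm23. It stayed above Timm17b, by 2.44-fold. Timm8b, with a single transcript of 518 nt, was then the highest member at 89.6 ± 4.19 TPM.

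Timm17a-204 is annotated as a retained-intron transcript, and RSEM gave it 56.0% and 53.4% of the gene's TPM. Only 4 of its bases lie outside the exons of the coding transcripts. They are the extension of an exon at its splice donor, which ends at position 135309771 in Timm17a-201 and at 135309767 in Timm17a-204. The junctions are printed on the coding strand with the 4 added bases in capitals, because within the exons that both transcripts cover they differ in nothing else.
Timm17a-201: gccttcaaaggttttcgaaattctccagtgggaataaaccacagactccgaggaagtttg
Timm17a-204: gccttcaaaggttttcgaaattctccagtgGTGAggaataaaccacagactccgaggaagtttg

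Timm17b has a retained-intron transcript of another kind. Timm17b-203 keeps a whole intron of 81 bases (chrX:7906200-7906280, plus strand), and RSEM gave it 47.2% and 47.6% of the gene's TPM, kallisto 43.7% and 42.9%. Its exon end is shown with the first bases of the kept intron in capitals.
Timm17b-203: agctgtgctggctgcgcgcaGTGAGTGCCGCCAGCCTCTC
The added part makes up 10.6% of Timm17b-203, and the rest of it lies in exons of coding transcripts.

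Timm23 shared its reads with an intronless copy. Gm10273 (chr10:59395632-59396757, plus strand), a gene entry with 1 exon typed as protein-coding, has a coding sequence of 627 bases that is identical to that of Timm23 in 627 of 627 positions. The first 100 bases of both, shown to make the identity visible, read as follows in Timm23-201 and Gm10273-201 alike.
Timm23 and Gm10273: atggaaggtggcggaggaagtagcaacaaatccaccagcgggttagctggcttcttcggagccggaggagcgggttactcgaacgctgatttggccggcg
Of the 31-base words of Timm23 transcripts, 57.7% also occur in Gm10273. RSEM gave 2108 and 2402 counts to Timm23 and 1685 and 1308 to Gm10273. Kallisto gave 3558 and 3154 to Timm23 and 195 and 503 to Gm10273. The split therefore differed between the methods and moved in opposite directions between the libraries, while the sum with all near copies did not: it was 3794 and 3710 by RSEM and 3754 and 3659 by kallisto. The summed RSEM level was 116.64 and 115.22 TPM. Which of these reads came from Gm10273 cannot be told apart over the coding sequence.

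**Figure D2:**
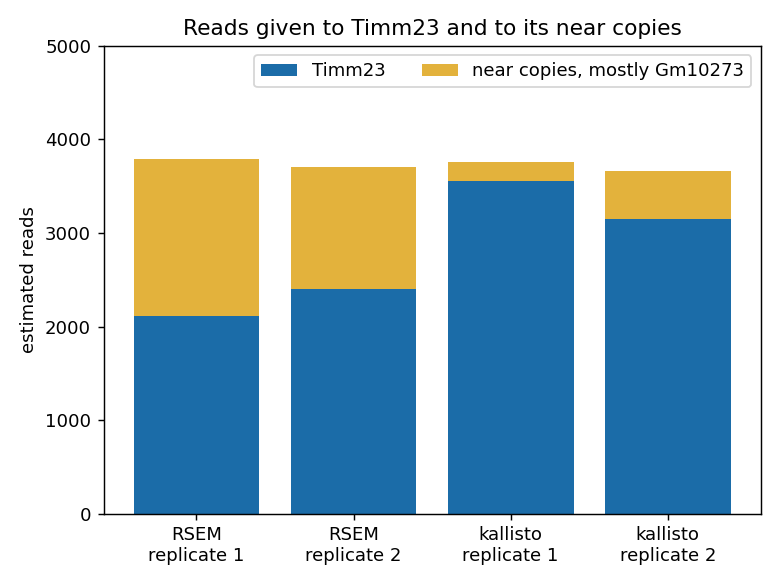
Estimated reads given to Timm23 (blue) and to its near copies, mostly Gm10273 (yellow), in each library, by RSEM and by kallisto. The total height is nearly the same in the 4 bars, between 3659 and 3794 reads, while the boundary inside the bars moves.

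Against the summed Timm23 level, Timm17a was 1.42-fold higher in place of 2.40-fold, and Timm22, Timm50, Timm17b, Timm21, Timm44 and Tomm40 were 2.23-fold to 5.73-fold lower. The receptor gene Timm50 (chr7:28305516-28312072, minus strand), whose protein catches presequences as they leave TOM, stood at 22.11 and 23.29 TPM. It was 3.02-fold below Timm23, or 5.09-fold below the sum with copies. Timm44 (chr8:4259731-4275913, minus strand), which tethers the import motor to the channel, stood at 42.99 and 44.85 TPM, 1.57-fold below Timm23 and 2.64-fold below the sum. Timm21, which links TIM23 to TOM and to the respiratory chain, stood at 29.11 and 27.94 TPM.

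Timm21 differed from the other members in the kind of transcript that held its reads. Its 8 transcripts include a single coding one of 2418 nt, and 95.1% and 91.0% of its RSEM TPM was in the 7 noncoding ones, or 94.6% and 91.6% by kallisto. Over counts the share was 84.8% and 73.6%. Its coding level was 1.97 ± 0.757 TPM, where the SD is over the 2 libraries, and it was then the lowest of the detected members. The 4 noncoding transcripts with the most RSEM counts had 26 to 1180 bases outside the coding exons. The gene lies inside Fbxo15 on the opposite strand, which had 0.02 and 0 TPM.

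The TIM22 complex had 3 members of modest level. Timm22 (chr11:76406952-76416292, plus strand), its channel, stood at 20.86 and 21.26 TPM. Timm29 (chr9:21592722-21595970, plus strand), a subunit that holds the complex together, stood at 18.45 and 20.97 TPM and was not parted from Timm22, with a ratio of 1.07-fold. At the longest coding transcripts Timm29 was 2.25-fold higher. Timm10b (chr7:105640056-105643637, plus strand), which docks the small TIM chaperones onto the complex, stood at 40.40 and 40.76 TPM. Of this, RSEM put 32.9% and 30.0% and kallisto 56.3% and 54.6% into noncoding transcripts.

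The small TIM chaperones ranged from the second highest member to the lowest. They work as hexamers that hold Timm9 and Timm10, or Timm8 and Timm13, in equal numbers. In the first couple, Timm10 (chr2:84826997-84830213, plus strand) stood at 49.93 and 48.01 TPM and Timm9 (chr12:71123173-71136684, minus strand) at 16.71 and 15.87 TPM. Timm10 was 2.99-fold higher, 3.32-fold by kallisto and 10.3-fold at the longest coding transcripts, and the genes did not overlap between libraries.

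In the second couple, Timm13 (chr10:80899450-80900969, minus strand) stood at 70.73 and 76.88 TPM. Timm8b (chr9:50603910-50605320, plus strand) stood at 86.66 and 92.59 TPM, and Timm8a1 (chrX:134537256-134541865, minus strand) at 11.57 and 11.28 TPM. Timm8a1 is the mouse counterpart of the human gene lost in a deafness and dystonia syndrome. Timm8b was 7.78-fold above Timm8a1, or 5.91-fold by kallisto. Timm8b was 1.21-fold above Timm13 by RSEM, or 2.56-fold at the longest coding transcripts, but Timm13 was 1.70-fold above Timm8b by kallisto. In coding transcripts only, kallisto kept the order of RSEM, with Timm13 at 72.7 and 67.4 TPM and Timm8b at 99.6 and 105.6 TPM. Timm8a2 (chr14:122034674-122038420, plus strand) had 0 and 2 expected counts, no more than the 3 counts that an observed 0 allows, so its absence from these hearts could not be told from a low level.

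Between the methods, the counts of some members differed widely. The ratio of kallisto to RSEM counts had a median of 1.07 over 11715 detected protein-coding genes, with 5% of genes below 0.881. It was 0.50 and 0.51 for Timm8b, 0.51 and 0.54 for Tomm7, 0.71 and 0.74 for Tomm5 and 0.78 and 0.79 for Timm10. All 4 genes encode very small proteins, with coding sequences of 129 to 270 bases, but the single transcript of Tomm7 has 1125 nt. Timm23 had ratios of 1.69 and 1.31, the highest of the detected members. Other members with short coding sequences did not have low ratios. The ratios were 1.07 and 1.07 for Tomm6 (222 bases) and 1.14 and 1.13 for Timm9 (267 bases). They were 1.07 and 1.08 for Timm13 (285 bases) and 1.22 and 1.18 for Timm8a1 (291 bases). The part of coding length or transcript length in these ratios was not tested.

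The assignment of reads to transcripts differed between the methods. Of the 20 members with 2 or more transcripts, the leading transcript was the same by both methods in 12 and different in 8. At least 50% of the TPM was in noncoding transcripts in both libraries for 2 members by RSEM, Timm17a and Timm21, and for 3 by kallisto, Timm13, Timm10b and Timm21. Among detected protein-coding genes this held for 7.69% and 7.38% by RSEM and 9.70% and 9.19% by kallisto in replicates 1 and 2. For Timm13, RSEM gave the retained-intron transcript Timm13-202 1.24% and 3.21% of TPM, and kallisto 55.6% and 63.8%. Of the 47 annotated noncoding transcripts of the members, 7 had at most 10 bases outside coding exons.

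**Figure D3:**
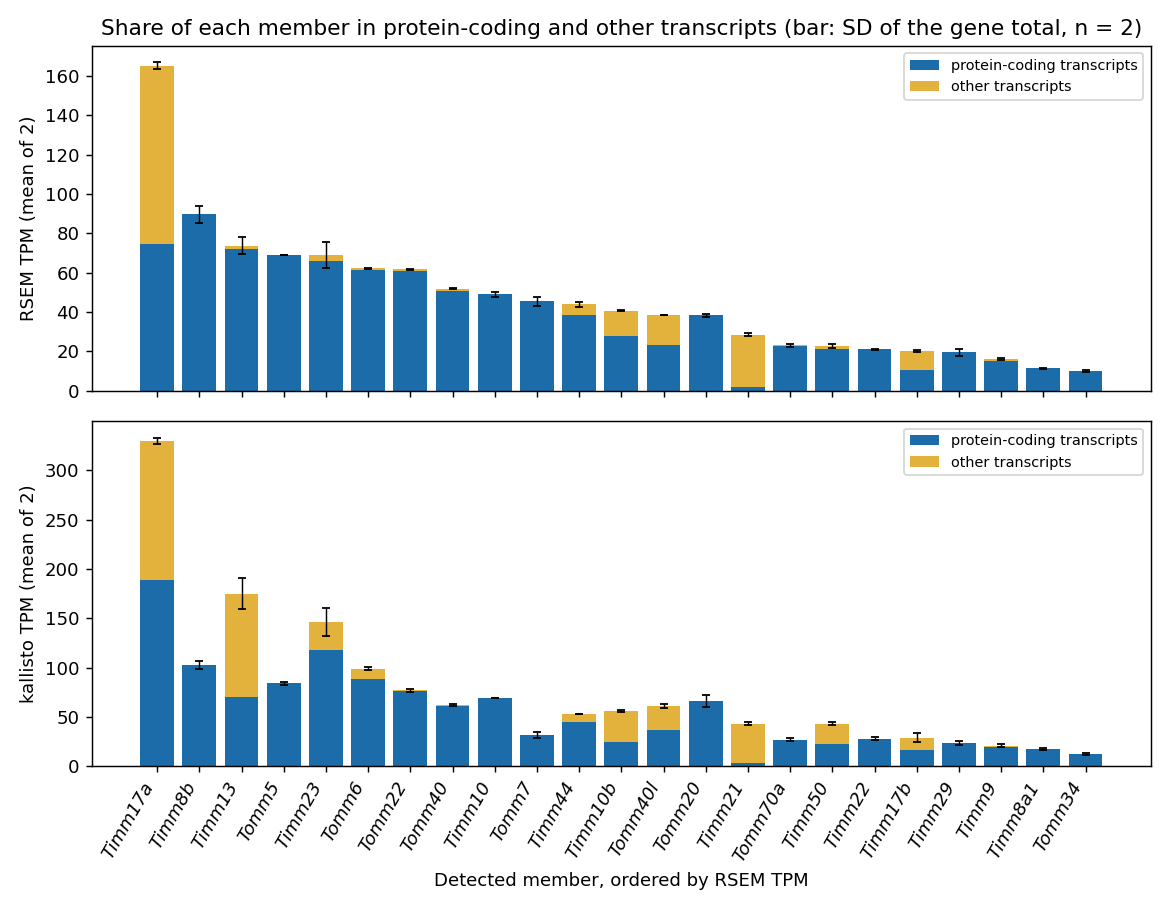
Mean TPM of the 23 detected members in protein-coding (blue) and other transcripts (yellow), by RSEM above and by kallisto below, with bars for the SD of the gene total over 2 libraries. Timm21 is almost wholly yellow in both panels, Timm17a holds large yellow parts in both, and Timm13 changes from 1.24% and 3.21% to 55.6% and 63.8%.

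Pseudogenes touched other receptors and chaperones. Gm14494, a processed pseudogene that shares 7.09% of the 31-base words of Tomm20, took 328 and 302 counts by RSEM and 189 and 162 by kallisto. With its near copies the Tomm20 level was 68.7 TPM in place of 38.4 TPM, which put it above Tomm22. Gm9797 shares 41.8% of the 31-base words of Timm8a1 and took 61.1 and 60.2 counts, and the sum of the pair was 20.9 TPM in place of 11.4 TPM. These sums add TPM of entries of unequal length, so they are not levels at the length of the member and do not settle its order among the others. Tomm6 shares 71.8% of its 31-base words with Gm21981, a protein-coding entry that overlaps it on the same strand. Gm21981 took 4.91 and 19.6 counts by RSEM, beside 1235 and 1199 for Tomm6. By kallisto it took 42.3 and 64.8, beside 1322 and 1280. Of the 25 members, 17 shared no such stretch with another gene on the same strand, where a stretch means at least 100 words of 31 bases.

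The 2 hearts could be compared for each member, although such a test compares these libraries and not conditions. Among all 16517 genes with at least 20 reads in sum, 1.27% were called. A call needed a ratio of 2 or more and, in a two-sided exact conditional binomial test with Benjamini-Hochberg adjustment, an adjusted p below 0.05. Of the 24 members tested 0 were called, and of the 23 tested with kallisto counts also 0, beside 1.3% of all genes there. In 0 of the 24 was the higher library at least 25% above the lower, against 19.4% of all genes tested, and against 4.58% of 7548 genes with summed counts in the range of the 23 detected members, from 717 to 8357. With kallisto counts it was 0 of 23, against 20.8% of all genes. The ratio farthest from 0 was that of Tomm20l, -0.24 on the log2 scale with a counting SE of 0.63, from 11 and 9 counts. At an unadjusted p under 0.05 there were 5 members, against 27% of all genes, and with adjustment 3, against 17.3%. With kallisto counts there were 7, against 26.4%, and with adjustment 5, against 16.8%.

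The 3 members by RSEM were Tomm20, Timm29 and Timm23, and kallisto counts added Timm13 (log2 ratio 0.17, adjusted p = 0.0244 in the exact binomial test) and Tomm7 (0.22, adjusted p = 0.0281). The test gave Tomm20 a log2 ratio of replicate 2 to replicate 1 of -0.16 with a counting SE of 0.0485 (adjusted p = 0.0115 in the exact binomial test), and kallisto counts gave -0.17. Timm29 had a ratio of 0.20 with an SE of 0.0472 (adjusted p = 0.00042, exact binomial test), and kallisto gave 0.19. Timm23 had a ratio of 0.23 with an SE of 0.0431 (adjusted p = 2.3e-06, exact binomial test) by RSEM but -0.13 by kallisto. Summed with its copies, its ratio was 0.0076 by RSEM and 0.0084 by kallisto. The differences of Tomm20 and Timm29 were the same in direction by both methods, and that of Timm23 was absent from the sum.

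**Figure D4:**
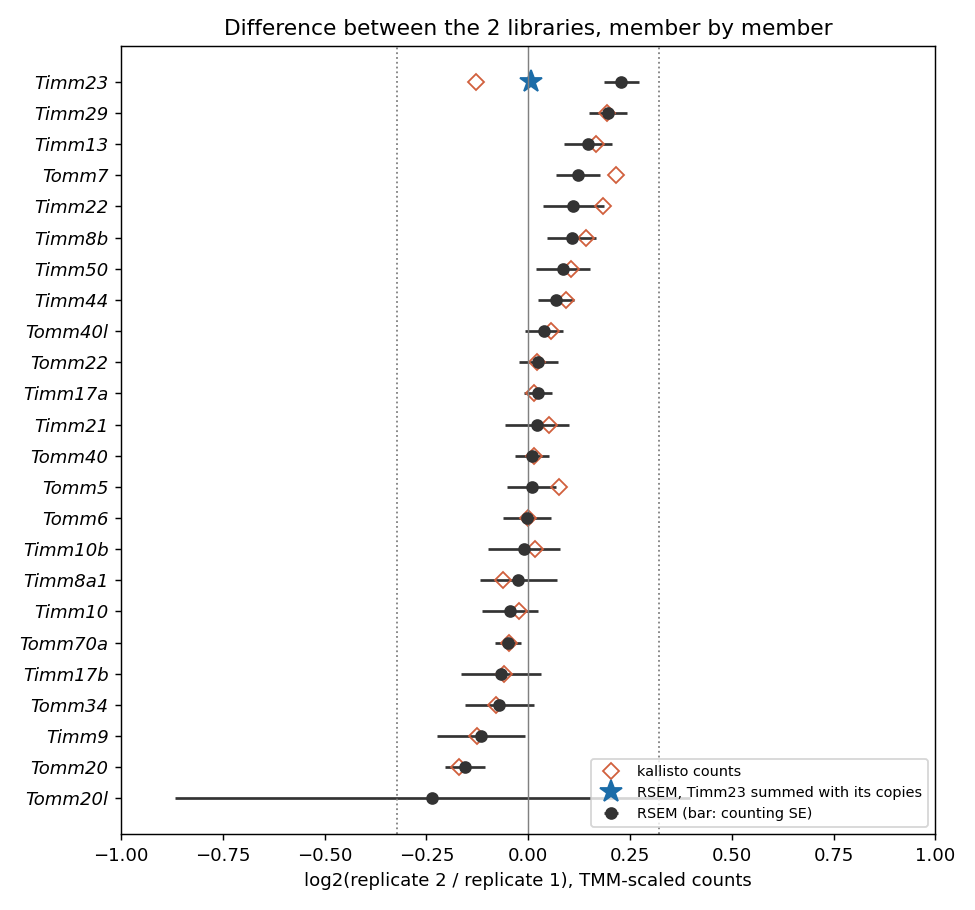
The log2 ratio of replicate 2 to replicate 1 for the 24 members tested, with black points and counting SE bars for RSEM, open diamonds for kallisto and a star for Timm23 summed with its copies. All black points lie between the dotted lines, which mark a difference of 25% either way, and Timm23 has its point and diamond on opposite sides of 0.

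Direction across the members was mixed, with 14 higher and 10 lower in replicate 2 and a median log2 ratio of 0.0149, beside 0.0023 over all genes tested. Scaling by the spike-ins moved the median of all genes to -0.11, and 19 of the 24 members were then lower in replicate 2. The median of the members was then -0.09. In the same libraries 64 of 78 mitochondrial ribosomal protein genes and 35 of 37 genes named as complex I subunits were higher in replicate 2 with the main scaling. Whether the members differ in this from those families was not tested.

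Set beside 3 other families of nuclear genes for mitochondria, the median of the members was near that of the ribosomal proteins and below that of complex I, with no test of these differences. The 78 mitochondrial ribosomal protein genes were taken by symbol, as Mrpl or Mrps followed by a digit, and had a median of 33.3 ± 2.22 TPM. By name they belong to the ribosome in the matrix, but a gene whose protein is not part of it may be among them. For complex I, the 37 genes were taken by symbol, as Nduf followed by a, b, c, s or v and a digit. They had a median of 269.7 ± 22.1 TPM. The rule goes by name, so a gene whose protein is not a subunit of complex I may be among them. The 47 SLC25 carrier genes, a family that includes clients of the TIM22 pathway, were also taken by symbol. Genes whose proteins are not such clients may thus be among them. They had a median of 5.87 ± 0.163 TPM, and 37 of them were detected. The highest deposited level of a member, that of Timm17a, was below the median of complex I. Carriers ranged widely, with quartiles of 1.70 and 22.7 TPM. The highest of them, at 1518.93 and 1722.04 TPM, was above every member.

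**Figure D5:**
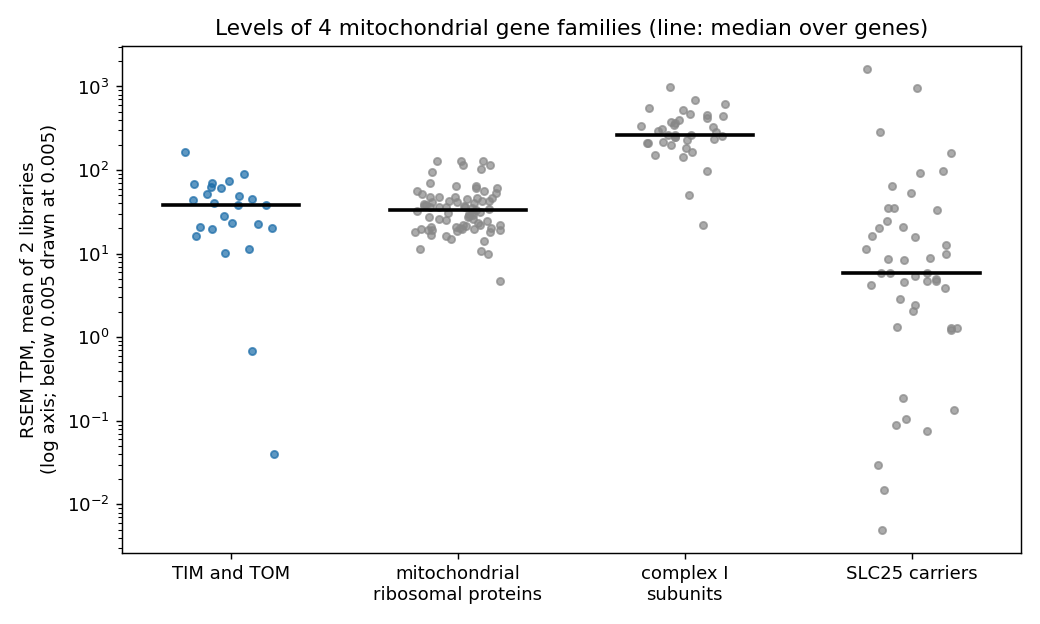
RSEM TPM of each gene on a log axis, as the mean of 2 libraries, for the TIM and TOM genes (blue) and 3 other mitochondrial gene families (grey), with a line at each median. The TIM and TOM median of 38.8 TPM lies near that of the ribosomal proteins, below that of complex I and above that of the carriers.

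Other proteins of the import pathway were all expressed. All 39 genes listed for it were detected, with a median of 49.8 ± 1.17 TPM, and 0 were called or differed by 25% or more between the libraries in the exact binomial comparison, beside 1.27% and 19.4% of all genes tested. At an adjusted p below 0.05 with any ratio there were 11 of 39, 9 higher and 2 lower in replicate 2, beside 17.3% of all genes. Among the partners of TIM23, Hspa9, the matrix HSP70 that pulls precursors in, was the highest at 194.57 and 199.60 TPM. Grpel2, a paralogue of its nucleotide exchange factor, was the lowest at 4.11 and 4.05 TPM. Hspa9 was above its tether Timm44 and above Timm23 and Timm17b in both libraries. It was above Timm17a by RSEM only, since kallisto gave Hspa9 212.4 and 214.4 TPM and Timm17a 332.1 and 327.5 TPM. Agk, the lipid kinase that is a subunit of TIM22, stood at 9.09 and 9.62 TPM.

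The disulfide relay that folds the small TIM chaperones had 3 genes on the list. Chchd4, the oxidoreductase that introduces the bonds into the cysteine pairs shown above, stood at 6.80 and 6.42 TPM, and Aifm1, which brings it into mitochondria, at 37.30 and 41.02 TPM. Of the proteases, Pmpcb, the catalytic subunit that removes presequences, stood at 90.32 and 96.13 TPM and Immp2l, an inner membrane peptidase, at 4.10 and 5.08 TPM. Among genes for the assembly of outer membrane proteins, Mtch1, an insertase there, was highest at 139.15 and 140.85 TPM and Mtx3 lowest at 3.51 and 3.24 TPM.

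The MICOS complex, which holds cristae junctions and contacts the import machinery, ran from Minos1 at 288.10 and 311.95 TPM to Chchd6 at 6.24 and 5.43 TPM. Oxa1l, which inserts proteins from the matrix, stood at 49.00 and 54.48 TPM and Cox18 at 5.30 and 6.27 TPM. Of the cytosolic chaperones that hand over precursors, Hsp90ab1 had the highest RSEM mean, with 425.11 and 432.20 TPM, but Hspa8, with 448.14 and 403.86 TPM, was above it in replicate 1 and in both libraries by kallisto. Timmdc1, which has a TIMM name but assembles complex I, stood at 23.81 and 25.16 TPM.

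In the genome, 8 of the 25 members (32%) begin within 1000 bases of the start of a protein-coding gene on the opposite strand, beside 16.5% of 11715 detected protein-coding genes. Timm8b is paired in this way with Sdhd, a subunit of respiratory complex II, whose level was 314.43 and 321.10 TPM. The starts of these genes lie 98 bases apart. The 97 bases between them are printed because they are all that parts the starts of these genes (GRCm38.p6, chr9:50603813-50603909, strand of Timm8b, no base in capitals).
Timm8b to Sdhd: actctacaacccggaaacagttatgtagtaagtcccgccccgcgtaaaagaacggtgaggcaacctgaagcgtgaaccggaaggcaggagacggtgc
Timm23 and Parg begin 51 bases apart and Timm17b and Pqbp1 88 bases apart. Parg stood at 11.94 and 10.47 TPM and Pqbp1 at 13.58 and 12.23 TPM. Of these neighbours only Sdhd had a level above that of its member. Parg and Pqbp1 were below theirs in both libraries. So were Arfip2 beside Timm10b, Yipf2 beside Timm29, 2700049A03Rik beside Timm9, Stk4 beside Tomm34 and Frs3 beside Tomm6.

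Promoter entries from RefSeq (GRCm38.p6), with 250 bases before and 50 after the start, were found for 22 of the 25 members. On either strand, the ETS motif CCGGAAGT, which the factor GABPA binds, occurred in 6 of 22 (27.3%), beside 4.31% of all 27025 genes with an entry. Its holders were Timm10, Timm10b, Timm23, Timm29, Timm8a2 and Tomm70a, so they include Timm8a2, which was not detected. The E-box CACGTG occurred in 5 of 22 (22.7%) beside 8.09%, and its holders were Timm10, Timm8a1, Timm9, Tomm20 and Tomm20l. The palindromic NRF1 motif was in 0 of 22, beside 1.07%, and a form of it with a free base in its middle, which includes the former, in Timm8b and Tomm20, beside 5.19%. The YY1 motif AAGATGGCG was in Timm50 alone, beside 1.64%, and the CRE TGACGTCA in 0 of 22, beside 2.03%. The CCAAT box occurred in 7 of 22 (31.8%) beside 41.1%. The motif TCAAGGTCA of estrogen-related receptors was found in Timm8b alone among the members, beside 0.466% of all. It lay 96 bases before the RefSeq start, which is not the annotated start used above for the distance to Sdhd. The stretch printed between Timm8b and Sdhd does not hold the whole motif, since this promoter entry reaches into Sdhd. Whether the motif serves Timm8b or Sdhd was not tested. The members' promoters had a median GC content of 58.3% beside 52.7%, and the part of base composition in these shares was not tested.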

How the data were processed

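Total RNA of 2 hearts was quantified in 1 library each. Per the text that accompanies the deposited files, the tables were made on mm10 with the GENCODE M21 annotation. The authors' gene table and first transcript table hold expected counts and TPM, per the file headers, with interval bounds whose level is not stated. The percent of the gene's TPM that each transcript takes is a further deposited column. The second deposited transcript table holds an estimated count and TPM, summed here per gene. The names RSEM and kallisto come from the column headers, and the sources used here do not name tools, versions or the use of strand in counting. Effective length was length minus 99 nt in the RSEM tables, while kallisto tables imply fragments of 334 and 330 nt, which changes the TPM of short genes. Spike-ins and 26248 numeric entries that name no gene (3.84 and 2.92 counts) entered neither library sizes nor tests. The members and lists were chosen with earlier results of these data known.

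Levels are deposited TPM with the SD of 2 libraries. Members were set against each other in 24 pairs on the scale log2(TPM + 0.1). Pairs count as apart where the sign is shared by the libraries and the mean ratio is over 3 SD, since 2 libraries allow no exact p under 0.5. By this rule 21 of 24 pairs were apart. The libraries were compared by a two-sided exact conditional binomial test on rounded expected counts with TMM sizes (edgeR 4.0.16, R 4.3.3) and Benjamini-Hochberg adjustment over genes with at least 20 counts. The counting SE covers counting error only. The edgeR quasi-likelihood test needs 2 groups and could not be fitted. Every member was named, as were the highest and lowest gene of each pathway list (1 of these is not reported here), and neighbouring, overlapping or near-identical genes. Gm10273 and the pseudogenes were chosen after their values were seen. Alternatives were kallisto values, counts per kilobase, coding transcripts only, other pseudocounts, DESeq2 1.42.0 size factors, total counts and spike-in totals, and each library alone. Sums with near copies and levels at the longest coding transcript were chosen after seeing the data. Sequences come from the GENCODE transcripts and RefSeq promoters. Python 3.11.15, pandas 2.3.3, scipy 1.17.1 and matplotlib 3.10.9 were used. The reference is C57BL/6J, and reads of the CAST/EiJ genome could be lost in both libraries alike.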

Additional observations from a re-analysis of the deposited data

How the results depend on the processing

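The median member level of 38.8 TPM was 53.4 with kallisto TPM, 27.9 in counts per kilobase, 27.8 with coding transcripts only and 19.7 at the longest coding transcript, and it ran from 38.7 to 39.0 with either library alone. With kallisto TPM the medians were 44.7 for mitochondrial ribosomal proteins, 392.2 for complex I, 7.32 for SLC25 carriers, 2.38 for all protein-coding genes and 68.5 for the pathway list. The count of detected members stayed between 23 and 24 and that of pairs apart between 20 and 22 in the alternatives run. Direction was reversed for Timm13 over Timm8b (log2 0.77, over all transcripts) and Tomm20 over Tomm40 (0.091) with kallisto. At the longest coding transcript it was reversed for Timm17a over Timm23 (-2.15), Tomm22 over Tomm40 (-0.34) and Tomm70a over Tomm20 (0.94). Timm29 over Timm22, not apart with the deposited TPM (-0.098), also changed sign there (1.17). That setting by construction divides by a greater length. No member was called between the libraries under the 5 alternatives run. The count of members with a difference of 25% or more was 1 with spike-in scaling (Tomm20l) and 1 without the filter on counts (Timm8a2, from 0 and 2 counts). No paired analysis was possible because there is 1 group. Leaving out a library leaves no comparison between libraries. Tomm20l, with 11 and 9 counts, and Timm8a2, with 0 and 2, had too few reads for a small difference to be detectable at this depth.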
